A study of Sus scrofa with 19 samples.

Results

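The steroid 3-beta-hydroxysteroid dehydrogenase HSD3B1, the 17-alpha-hydroxylase CYP17A1, the 21-hydroxylase CYP21A2 and SCARB1, the cell-surface receptor for high-density lipoprotein (HDL), were followed in the adrenal glands of 19 male pigs. Members were all probe sets of the array whose only gene symbol was 1 of these 4 names. They came to 5 probe sets, 2 of them for SCARB1, of 27558 on the array, and to 4 genes of the 12218 that had a probe set of their own. The rule read only gene names, but the members were chosen with earlier results of these data known.

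Cortisol is made from cholesterol in the cortex of the adrenal gland. SCARB1 takes up cholesterol esters from HDL, and the side chain of cholesterol is then removed to give pregnenolone. HSD3B1, CYP17A1 and CYP21A2 carry out the following steps towards cortisol, and a last hydroxylation completes it. The pituitary hormone ACTH drives this pathway, and bacterial lipopolysaccharide (LPS), an endotoxin that sets off inflammation, is a strong stimulus of ACTH release.

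Sows received a control diet, a fish oil diet or a microalgae diet from day 75 of gestation, and were injected with LPS or with saline on day 112. A son of each sow was weaned at 21 days of age, was itself given LPS at 28 days, and was killed 2 h later. All 19 piglets therefore shared the LPS challenge of their own, and no unchallenged piglet was analysed here. The whole adrenal, cortex and medulla together, was frozen and its RNA was hybridised to 1 Affymetrix array per piglet.

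The 6 groups were small. Under the control diet there were 3 piglets of saline sows (piglets 8, 14 and 21) and 3 of LPS sows (6, 16 and 17). Under fish oil there were 4 after maternal saline (9, 11, 13 and 18) and 4 after maternal LPS (10, 19, 20 and 24). Under microalgae there were 3 after maternal saline (12, 15 and 22) and 2 after maternal LPS (7 and 23). The number of arrays limits the precision of every comparison, and 1 group rested on 2 piglets.

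Values are deposited log2 signals, on which a difference of 1 is a 2-fold difference. Array medians lay between 4.38 and 4.52, and pairs of arrays correlated at 0.934 to 0.982 across probe sets. Piglets 24 and 6 had the narrowest spread of log2 values on their arrays (interquartile ranges of 2.271 and 2.394, against 2.437 to 2.654 in the others). Of the other cortex markers 3 could be tested (FDXR, SULT2A1 and NR0B1, with mean signals of 6.74, 3.26 and 3.91), of which SULT2A1 lay next to the lower limit of 3.23 set for testing. For the medulla, 12 marker genes could be tested, and their mean per piglet ranged from 5.25 to 7.03. In RNA from a whole gland, fewer cells of a type and less RNA per cell cannot be told apart.

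HSD3B1 turns pregnenolone and 17-hydroxypregnenolone into progesterone and 17-hydroxyprogesterone. Its log2 signal under the control diet was 10.63, 11.31 and 11.36 after maternal saline (piglets 8, 14 and 21) and 10.73, 11.17 and 11.20 after maternal LPS (6, 16 and 17). Under fish oil it was 10.98, 11.15, 11.26 and 11.44 after saline (9, 11, 13 and 18) and 11.20, 10.87, 11.75 and 10.89 after LPS (10, 19, 20 and 24). Under microalgae it was 11.31, 10.85 and 11.66 after saline (12, 15 and 22) and 10.88 and 10.90 after LPS (7 and 23). Piglet 8 was the lowest and piglet 20 the highest, a 2.17-fold range. The groups overlapped, except that both microalgae piglets after LPS lay below every fish oil piglet after saline. Group means ran from 10.89 ± 0.02 (SD, n = 2) under microalgae after LPS to 11.27 ± 0.40 (SD, n = 3) under microalgae after saline.

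CYP17A1 adds the 17-hydroxyl group that cortisol carries and corticosterone lacks. Its log2 signal under the control diet was 11.88, 12.50 and 12.31 after maternal saline (piglets 8, 14 and 21) and 12.27, 12.49 and 12.18 after maternal LPS (6, 16 and 17). Under fish oil it was 12.49, 12.38, 12.41 and 12.40 after saline (9, 11, 13 and 18) and 12.62, 12.44, 12.32 and 12.25 after LPS (10, 19, 20 and 24). Under microalgae it was 12.56, 12.52 and 12.32 after saline (12, 15 and 22) and 11.94 and 12.49 after LPS (7 and 23). Piglets 8 and 7 stood lowest, and the remaining 17 piglets lay between 12.18 and 12.62. The whole range was 1.67-fold, and group means ran from 12.21 ± 0.39 (SD, n = 2) under microalgae after LPS to 12.47 ± 0.13 (SD, n = 3) under microalgae after saline.

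CYP21A2 hydroxylates progesterone and 17-hydroxyprogesterone, a step shared by the routes to cortisol and to aldosterone. Its log2 signal under the control diet was 10.74, 11.35 and 11.15 after maternal saline (piglets 8, 14 and 21) and 10.94, 11.21 and 10.87 after maternal LPS (6, 16 and 17). Under fish oil it was 11.47, 11.47, 11.20 and 11.48 after saline (9, 11, 13 and 18) and 11.47, 11.31, 11.09 and 11.24 after LPS (10, 19, 20 and 24). Under microalgae it was 11.49, 11.05 and 10.96 after saline (12, 15 and 22) and 11.21 and 11.39 after LPS (7 and 23). The 3 lowest signals belonged to control piglets (8, 17 and 6), while 4 of the 5 highest belonged to fish oil piglets. Group means ran from 11.01 ± 0.18 (SD, n = 3) in control piglets of LPS sows to 11.40 ± 0.13 (SD, n = 4) in fish oil piglets of saline sows.

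SCARB1 was read by a pair of probe sets, taken here as the first and the second, which measure the same gene and are not independent. The first read 10.61, 11.30 and 11.40 in control piglets after maternal saline (8, 14 and 21) and 10.59, 11.31 and 11.01 after maternal LPS (6, 16 and 17). Under fish oil it read 11.24, 11.26, 11.03 and 11.61 after saline (9, 11, 13 and 18) and 11.31, 11.33, 11.44 and 11.08 after LPS (10, 19, 20 and 24). Under microalgae it read 11.50, 10.85 and 11.43 after saline (12, 15 and 22), and after LPS piglet 23 read 11.03 and the mean of piglets 7 and 23 was 11.02 ± 0.02 (SD, n = 2). Piglets 6 and 8, both under the control diet, had the lowest signals, and the range over all piglets was 2.02-fold. The second probe set read 10.82, 11.62 and 11.66 in control piglets after maternal saline and 10.72, 11.81 and 11.31 after maternal LPS, in the same order of piglets. Under fish oil it read 11.39, 11.55, 11.43 and 11.65 after saline and 11.52, 11.68, 11.54 and 11.22 after LPS. Under microalgae it read 11.49, 11.27 and 11.84 after saline and 11.03 and 11.20 after LPS. It too had piglets 6 and 8 lowest, with the others between 11.03 and 11.84. Its group means ran from 11.12 ± 0.12 (SD, n = 2) under microalgae after LPS to 11.54 ± 0.29 (SD, n = 3) under microalgae after saline. For the first probe set they ran from 10.97 ± 0.36 (SD, n = 3) in control piglets after LPS to 11.29 ± 0.15 (SD, n = 4) in fish oil piglets after LPS.

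Piglet 8 was the lowest of the 19 for HSD3B1, CYP17A1 and CYP21A2 and the second lowest for both SCARB1 probe sets. No piglet was the highest for more than 1 probe set. HSD3B1 was highest in piglet 20, CYP17A1 in piglet 10, CYP21A2 in piglet 12, and the SCARB1 probe sets in piglets 18 and 22.

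**Figure D1:**
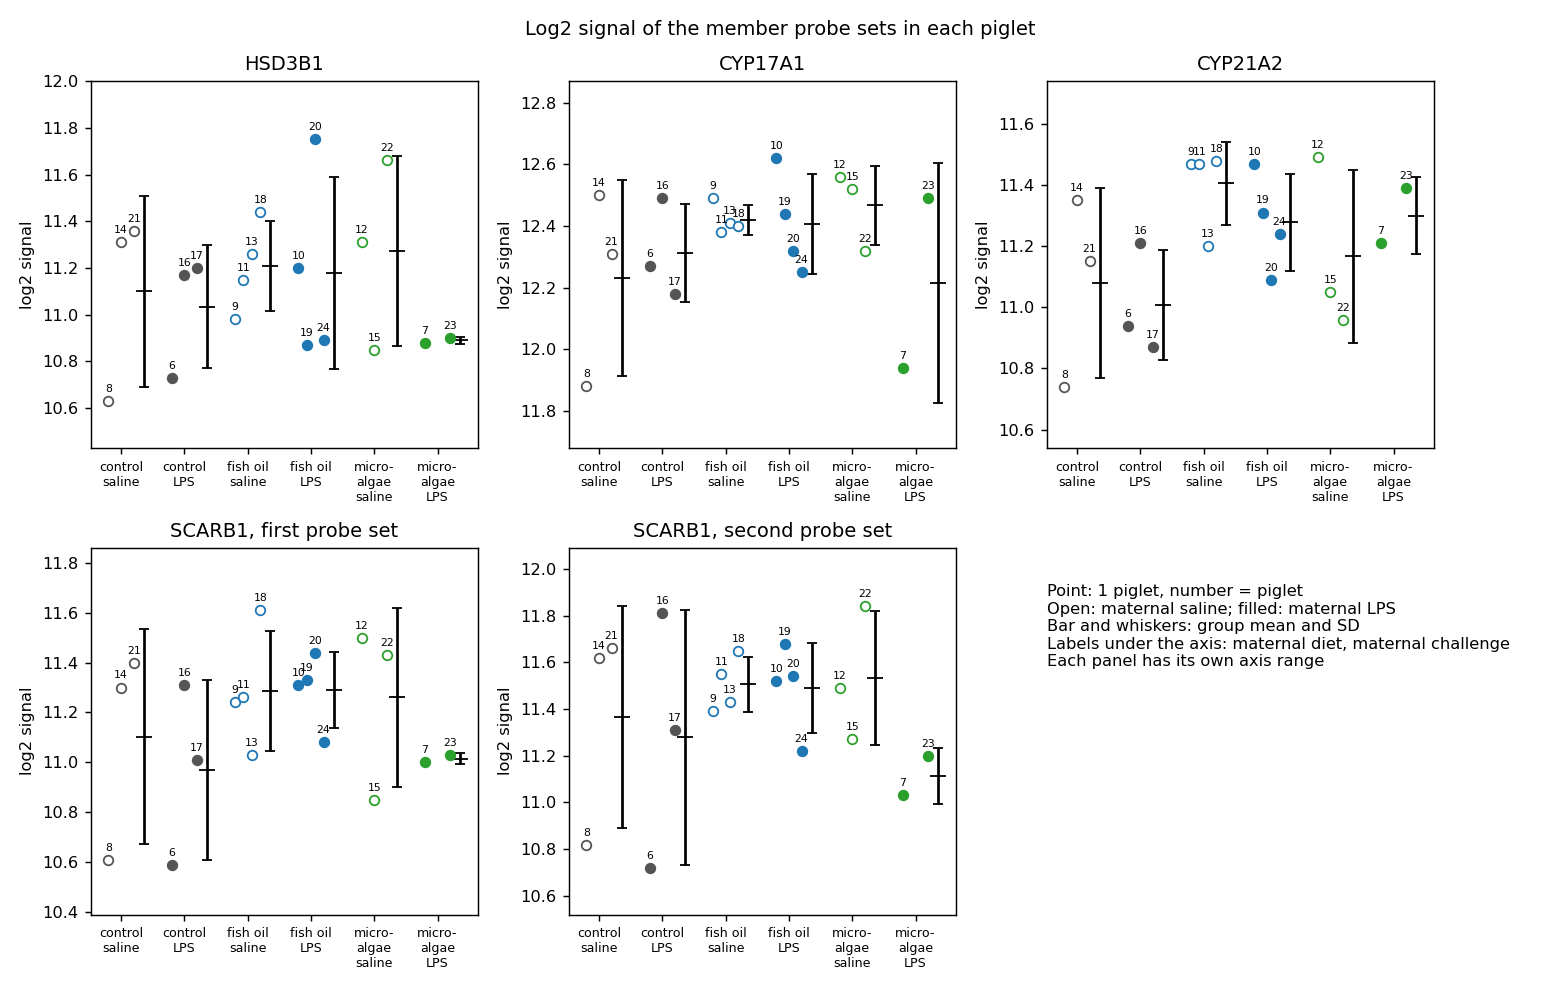
Log2 signal of the 5 probe sets (vertical axes, each panel with its own range) in the 6 groups of maternal diet and maternal challenge (horizontal axes), 1 point per piglet with its number, open after maternal saline and filled after maternal LPS, with the group mean and SD beside the points. Groups overlap in every panel, but for HSD3B1 and both SCARB1 probe sets some pairs of groups do not. Piglet 8 sits at or next to the bottom in each panel, and the 8 fish oil piglets for CYP21A2 lie between 11.09 and 11.48.

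When the 6 groups were ordered by their means, neighbours differed by less than the SD within groups for each of the 5 probe sets. That SD was 0.33 for HSD3B1, 0.20 for CYP17A1, 0.21 for CYP21A2, and 0.29 and 0.33 for the SCARB1 probe sets. Ordering puts close means side by side, so small steps between neighbours do not show that the groups were alike. The lowest and highest group means differed by 0.38, 0.26, 0.40, 0.32 and 0.42 in the same order, each more than that SD. Means of so few piglets scatter even where groups do not differ, and these are the extremes of 6. The ranges therefore do not show that the groups differed. The median SD within groups over the 20668 probe sets tested was 0.26. CYP17A1 had a smaller SD within groups than most of them, since 22.1% had a smaller one, and for CYP21A2 the figure was 25.5%. HSD3B1 was more variable, with 71.2% of probe sets below it. Differences between group means made up 39.3% of the variance of CYP21A2, a share below which 82.7% of all probe sets tested lay. It was 14.4% for HSD3B1, 23.2% for CYP17A1, and 21.6% and 19.6% for SCARB1. The median over all probe sets tested was 24.4%.

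The study asked how the mother's diet and her LPS challenge shape the adrenal transcriptome of her sons. Each comparison below was a contrast in 1 limma fit over all 19 arrays with a mean for each group. All 5 member probe sets passed the lower limit on mean signal.

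Maternal LPS left no detectable difference in the 4 genes. No member passed an adjusted p of 0.05, a threshold that 0.00968% of all probe sets passed, and none had an unadjusted p under 0.05, as 6.97% did. HSD3B1 ranged from 10.73 to 11.75 (median 10.90) in the 9 piglets of LPS sows and from 10.63 to 11.66 (median 11.28) in the 10 of saline sows. The difference, averaged over the diets, was -0.16 ± 0.15 (SE; 95% interval -0.47 to 0.15; exact permutation p = 0.315). For the second SCARB1 probe set it was -0.17 ± 0.15 (interval -0.48 to 0.14; exact permutation p = 0.294), and for the first -0.12 ± 0.13 (interval -0.41 to 0.16; p = 0.387). The remaining enzymes lay closer to 0, with -0.06 ± 0.10 for CYP17A1 (interval -0.28 to 0.15; exact permutation p = 0.571) and -0.02 ± 0.10 for CYP21A2 (interval -0.24 to 0.20; p = 0.836). These permutation tests were two-sided and exchanged piglets within a diet, with a smallest possible p of 7.14e-05. The limma p adjusted over all probe sets ran from 0.774 to 0.968. All 5 estimates were negative, on an array where 48.2% of probe sets were lower after maternal LPS. With the spread of each array's log2 values as a covariate, HSD3B1 was at -0.04 ± 0.13, and the SCARB1 probe sets were at -0.01 ± 0.12 and -0.05 ± 0.13. Without piglet 6 the SCARB1 probe sets were at -0.06 and -0.08. The sign turned for CYP17A1 without piglet 7 (0.03) and for CYP21A2 without piglets such as 12 (0.03), so no direction is given for these enzymes. The intervals of the folds reach down to 0.718 of the saline level for SCARB1 and 0.724 for HSD3B1, so differences of that size were not excluded. Within the diets the HSD3B1 difference was -0.07 under control, -0.03 under fish oil and -0.38 under microalgae. In the same order it was -0.13, 0.01 and -0.24 for the first SCARB1 probe set, and -0.08, -0.01 and -0.42 for the second. For CYP17A1 it was 0.08, -0.01 and -0.26, and for CYP21A2 -0.07, -0.13 and 0.14. Except in CYP21A2, the largest negative differences thus came from microalgae, whose LPS group held 2 piglets.

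The fish oil diet went with a higher CYP21A2 signal, at an unadjusted level only. CYP21A2 lay between 11.09 and 11.48 (median 11.39) in the 8 fish oil piglets and between 10.74 and 11.35 (median 11.04) in the 6 control piglets. All 8 fish oil piglets were above the control mean and 4 were above the highest control piglet, while 3 of the 6 controls were below the lowest fish oil piglet, so the groups overlapped. The difference was 0.30 ± 0.12 (SE; 95% interval 0.05 to 0.55), a 1.23-fold higher signal (interval 1.03 to 1.46). The limma p was 0.0232 before and 1 after Benjamini-Hochberg adjustment over all probe sets. The exact two-sided permutation test within maternal challenges gave p = 0.0122 (1225 arrangements, smallest possible 0.000816). This was the smallest permutation p of any member in the comparisons made here. It is not adjusted for their number or for the choice of members with earlier results known.

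CYP21A2 was the only 1 of the 5 probe sets with an unadjusted p under 0.05 for fish oil, a level that 2.69% of all probe sets reached and 1.39% reached upwards. None of the 20668 probe sets (0%) passed the adjusted threshold. After maternal saline the CYP21A2 difference was 0.32 ± 0.17 (interval -0.03 to 0.68) and after maternal LPS 0.27 ± 0.17 (interval -0.09 to 0.63), both with an adjusted limma p of 1. Leaving out control piglet 8, the lowest of all, reduced the difference to 0.21 and brought its unadjusted limma p to 0.0791, and leaving out control piglet 17 gave 0.26 with 0.0601. In the other 17 fits that left out 1 piglet, the unadjusted p stayed under 0.05. Among these, the fits without microalgae piglet 7, 12, 15, 22 or 23 could not move the difference, which stayed at 0.30. Microalgae piglets enter this comparison only through the shared estimate of the spread.

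Markers of other cell types also differed in level between these piglets, none past adjustment. Of 17 markers of fibroblasts and of the capsule, 14 were lower under fish oil (median -0.30), as were 49.6% of all probe sets (median 0.001). For 5 of the 17 the unadjusted p was under 0.05, as for 2.69% of all probe sets. Among them were the collagens COL1A2 (-0.93 ± 0.35) and COL3A1 (-0.84 ± 0.29). The piglet mean of these 17 markers ran from 5.41 to 6.64 under fish oil and from 5.53 to 6.98 under the control diet. With this mean as a covariate, a setting added after the data had been seen, the CYP21A2 difference was 0.26 ± 0.13 and its unadjusted limma p rose to 0.0602. Across the 19 piglets CYP21A2 correlated with that mean at r = -0.425 (rho = -0.360; permutation p = 0.07 and 0.129, adjusted over the 5 probe sets 0.348 and 0.616), at -0.388 without piglets 9 and 24, and at -0.265 with group means subtracted. Of the 12 medulla markers 8 were lower and 4 higher under fish oil (median -0.19). For fish oil against microalgae 12 of 12 were lower (median -0.31), as were 51.3% of all probe sets. With the mean of the 12 medulla markers as the covariate the CYP21A2 difference was 0.29 ± 0.12 and its unadjusted limma p 0.0305. Of the 3 other cortex markers 2 were higher under fish oil (median 0.001), where 50.4% of all probe sets were higher. Macrophage markers were higher under fish oil in 13 of 13 (median 0.18) and endothelial markers in 7 of 9 (median 0.13). Lymphocyte markers were higher in 11 of 14 (median 0.19), among them NKG7 (0.37 ± 0.11) and CD2 (0.54 ± 0.23). Their part in the CYP21A2 difference was not tested.

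The other members had smaller or less precise differences under fish oil. The first SCARB1 probe set ran from 11.03 to 11.61 in fish oil piglets and from 10.59 to 11.40 in controls, a difference of 0.25 ± 0.15 (interval -0.07 to 0.57; exact permutation p = 0.144). The second gave 0.17 ± 0.17 (interval -0.18 to 0.53; exact permutation p = 0.368). CYP17A1 differed by 0.14 ± 0.12 (interval -0.10 to 0.38; exact permutation p = 0.172) and HSD3B1 by 0.12 ± 0.17 (interval -0.23 to 0.48; p = 0.476). All 5 estimates were positive, where 50.4% of all probe sets were higher under fish oil. Single control piglets carried several of them. Without piglet 8 the difference was 0.01 for HSD3B1, 0.05 for CYP17A1, and 0.13 and 0.04 for the SCARB1 probe sets. Without piglet 6 it was 0.05 for HSD3B1, and 0.15 and 0.03 for SCARB1. With array weights HSD3B1 was at 0.00027.

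The microalgae diet was compared with the same 6 control piglets, so that its differences are not independent of those for fish oil. No member had an unadjusted p under 0.05, which 1.65% of all probe sets had, and the adjusted threshold was passed by 0%. CYP21A2 lay between 10.96 and 11.49 (median 11.21) in the 5 microalgae piglets, 4 of which were above the control mean. Its difference was 0.19 ± 0.14 (interval -0.10 to 0.47; exact permutation p = 0.210), beside the 0.30 found for fish oil. The other differences were 0.10 ± 0.17 for the first SCARB1 probe set, 0.07 ± 0.13 for CYP17A1, 0.01 ± 0.19 for HSD3B1 and 0.001 ± 0.19 for the second SCARB1 probe set. The last value and that of HSD3B1 were negative under quantile normalization (-0.11 for each), so no direction is given for them.

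Set directly against each other, the omega-3 diets did not differ detectably. The fish oil minus microalgae difference was 0.11 ± 0.13 for CYP21A2 (interval -0.16 to 0.38; exact permutation p = 0.322), 0.11 ± 0.18 for HSD3B1 and 0.07 ± 0.12 for CYP17A1. It was 0.15 ± 0.16 and 0.17 ± 0.18 for the SCARB1 probe sets. None of the 5 had an unadjusted p under 0.05 (2.85% of all probe sets), and 0% passed after adjustment. Exact permutation p ran from 0.200 to 0.596.

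Whether maternal LPS acted differently under the 3 diets was tested as an interaction. For fish oil against control the members' interaction estimates ran from -0.10 in CYP17A1 to 0.14 in the first SCARB1 probe set (unadjusted limma p 0.667 to 0.919). For microalgae against control they ran from -0.34 in CYP17A1 to 0.21 in CYP21A2 (unadjusted limma p 0.215 to 0.751), with SE of 0.26 to 0.38. That of CYP17A1 was -0.06 without piglet 7 and -0.61 without piglet 23 (unadjusted limma p 0.0438, not past adjustment), the 2 piglets of the microalgae and LPS group. That of the second SCARB1 probe set was -0.06 without piglet 8 and -0.62 without piglet 6, and that of HSD3B1 -0.08 without piglet 8 and -0.53 without piglet 15. No member had an unadjusted p under 0.05, which 2.64% of all probe sets had for fish oil and 5.41% for microalgae, and 0% passed the adjusted threshold in either. Intervals were wide, from -1.12 to 0.49 for HSD3B1 under microalgae, where 1 of the groups held 2 piglets.

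**Figure D2:**
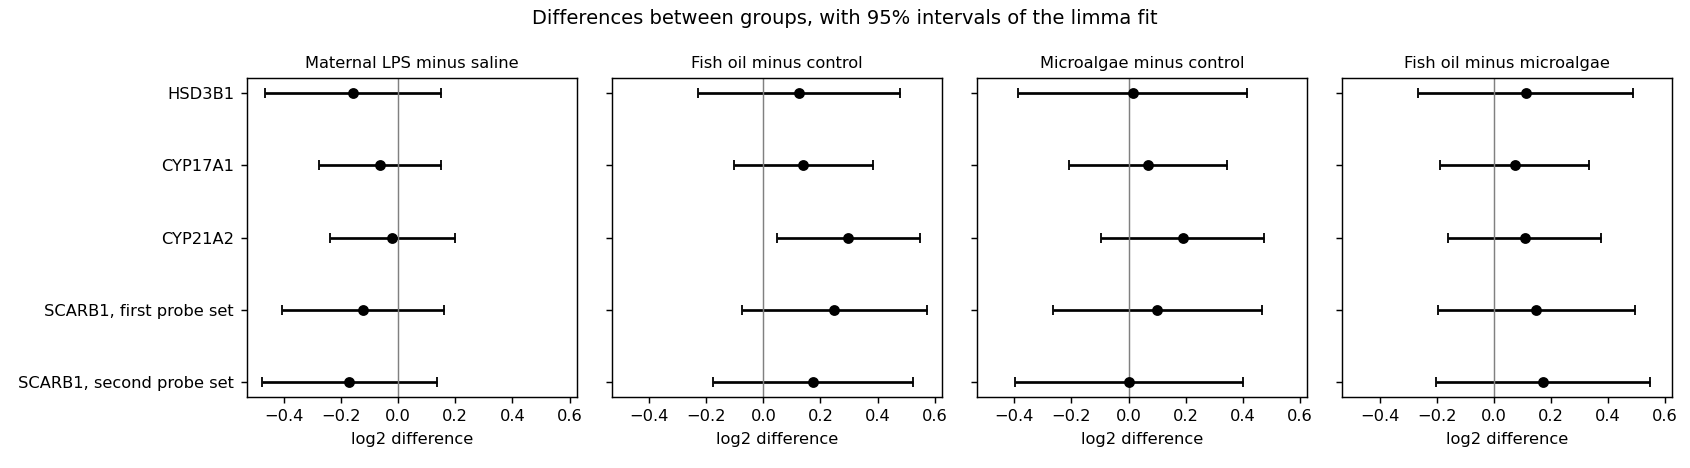
Log2 differences (horizontal axes) of the 5 probe sets with their 95% limma intervals in the 4 comparisons of maternal LPS, fish oil, microalgae and fish oil against microalgae. The interval of CYP21A2 for fish oil (0.05 to 0.55) is the only 1 of the 20 that leaves out 0. Each interval is at 95% by itself, with no adjustment for there being 20 of them.

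Across piglets the correlations between genes were highest for HSD3B1 with SCARB1 and for CYP17A1 with CYP21A2. The hydroxylases CYP17A1 and CYP21A2 correlated with Pearson r = 0.654 and Spearman rho = 0.633 over 19 piglets (permutation p = 0.0022 and 0.0046; Benjamini-Hochberg over 10 pairs 0.0055 and 0.012). After the group means were subtracted r was 0.780 (permutation p = 0.00045, adjusted 0.0032), and without piglets 7 and 8, the farthest from the median of CYP17A1, it was 0.672. Without piglet 8 alone r was 0.511 and its adjusted permutation p 0.069, and with quantile normalization they were 0.467 and 0.11.

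HSD3B1 correlated with the first SCARB1 probe set at r = 0.783 and rho = 0.782 (permutation p = 5e-05 and 0.00011; adjusted 0.00025 and 0.00055). It correlated with the second at r = 0.742 and rho = 0.668 (permutation p = 0.00024 and 0.0022; adjusted 0.0008 and 0.0075). Without piglets 8 and 20, the farthest from the median of HSD3B1, r was 0.738 and 0.745, and after subtracting group means it was 0.772 and 0.694. The probe sets of SCARB1 itself correlated at r = 0.882 and rho = 0.816 (permutation p = 1e-05, the smallest that 100000 draws can give, and 4e-05; adjusted 0.0001 and 0.0004).

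HSD3B1 was not detectably correlated with either hydroxylase. With CYP17A1 its r was 0.310 (rho = 0.202; permutation p = 0.197 and 0.407; adjusted 0.219 and 0.407), and with CYP21A2 it was 0.171 (rho = 0.242; permutation p = 0.483 and 0.317; adjusted 0.483 and 0.353). Piglets 20 and 22 had the highest HSD3B1 signals (11.75 and 11.66) and were 6th and 4th from the bottom for CYP21A2 (11.09 and 10.96). The difference between these correlations was not tested.

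SCARB1 and the hydroxylases were in between. CYP21A2 correlated with the first SCARB1 probe set at r = 0.611 (rho = 0.518; permutation p = 0.0052 and 0.024; adjusted 0.01 and 0.049) and with the second at 0.426 (rho = 0.281; permutation p = 0.068 and 0.242; adjusted 0.085 and 0.302). CYP17A1 correlated with them at 0.507 (rho = 0.351; permutation p = 0.027 and 0.142; adjusted 0.038 and 0.215) and 0.574 (rho = 0.342; permutation p = 0.011 and 0.15; adjusted 0.018 and 0.215). Those of CYP17A1 rested on piglets 7 and 8, without which r was 0.241 and 0.252. That of CYP21A2 with the first probe set was 0.457 without piglets 8 and 17 (permutation p = 0.065).

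**Figure D3:**
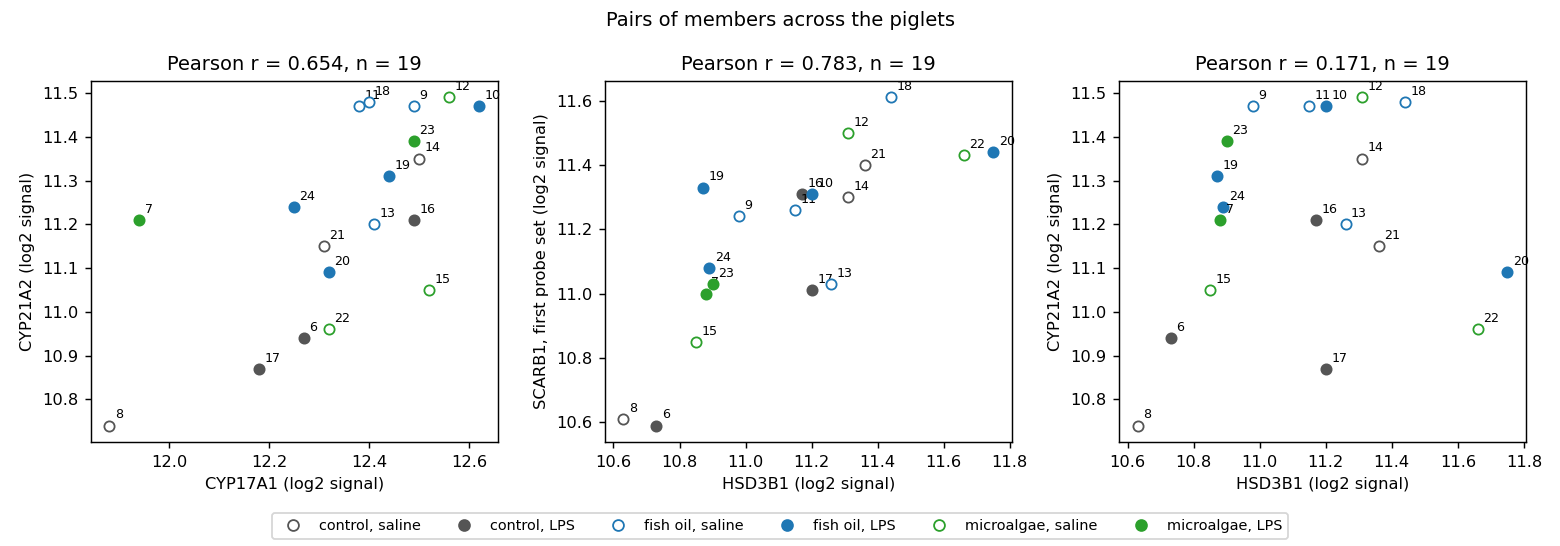
Log2 signals of CYP21A2 against CYP17A1, of the first SCARB1 probe set against HSD3B1 and of CYP21A2 against HSD3B1, 1 point per piglet with its number, coloured by maternal diet, open after maternal saline and filled after maternal LPS. The first 2 panels rise together (r = 0.654 and 0.783), while in the last piglets 20 and 22 lie at the right with low CYP21A2 (r = 0.171).

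The spread of an array's log2 values correlated with HSD3B1 and SCARB1. HSD3B1 correlated with the interquartile range of its array at r = 0.637 (rho = 0.639; permutation p = 0.003 and 0.0039; adjusted over the 5 probe sets of this family 0.0061 and 0.0065), and the SCARB1 probe sets did so at 0.637 and 0.650 (rho = 0.775 and 0.753). Without piglets 6 and 24, whose arrays had the narrowest spread, r was 0.645 for HSD3B1 and 0.703 and 0.637 for SCARB1. With group means subtracted it was 0.597 for HSD3B1, no longer past the threshold (adjusted permutation p = 0.099), and 0.607 and 0.608 for SCARB1 (0.0084 and 0.006). Of all probe sets tested, 9.6% had a higher r with the array spread than HSD3B1, and 8.9% a higher r than the second SCARB1 probe set. With negative r counted too, 17.6% and 16.2% had a larger absolute r. CYP17A1 and CYP21A2 had r of 0.211 and 0.193 (permutation p = 0.383 and 0.433). Regressing the array spread out of each gene, a step added after the data had been seen, left r = 0.635 between HSD3B1 and the first SCARB1 probe set (adjusted permutation p = 0.0094) and 0.559 with the second (0.021). Between CYP17A1 and CYP21A2 it left 0.639 (0.0094), which was no higher than the 0.646 left between CYP21A2 and the first SCARB1 probe set (0.0094). With CYP17A1 the SCARB1 probe sets kept 0.494 (0.05) and 0.588 (0.018). In this setting the pairs named above were thus not set apart from those of SCARB1 with the hydroxylases.

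**Figure D4:**
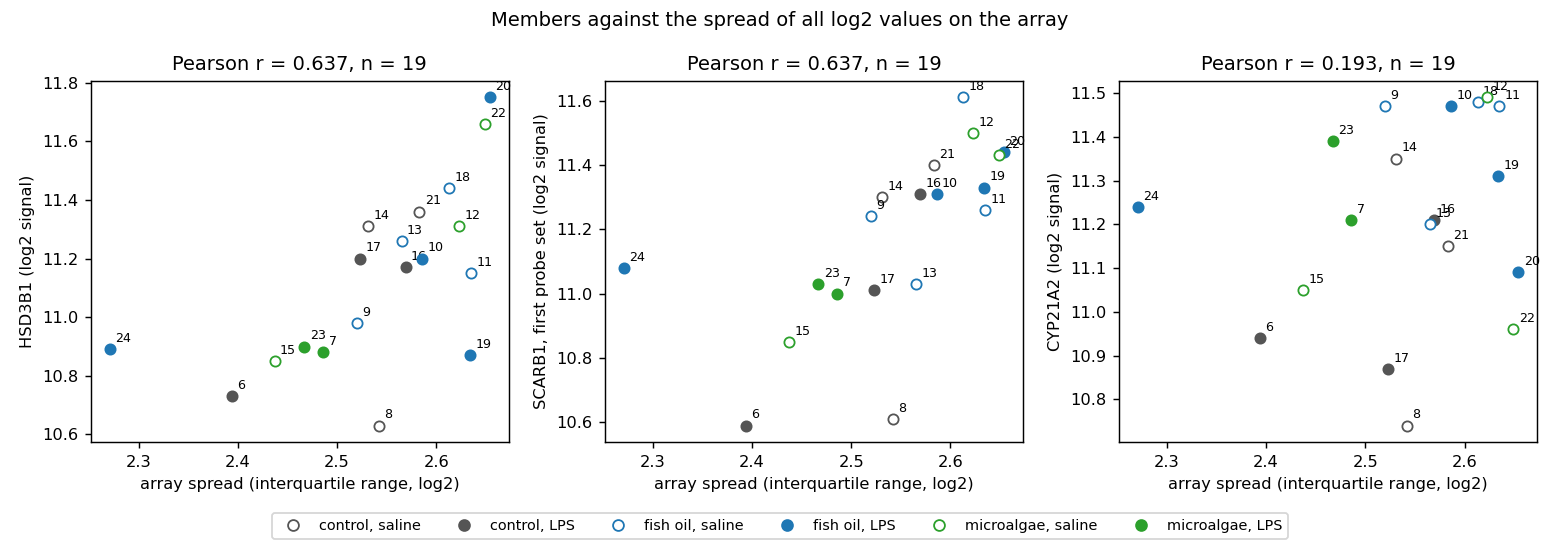
Log2 signals of HSD3B1, of the first SCARB1 probe set and of CYP21A2 (vertical axes) against the interquartile range of all log2 values on the same array (horizontal axes), 1 point per piglet with its number. HSD3B1 and SCARB1 rise with the array spread (r = 0.637 each), CYP21A2 has r = 0.193, and piglets 24 and 6 lie at the left with the narrowest arrays.

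None of the members correlated detectably with the mean of the 12 medulla markers, with r from -0.423 in the second SCARB1 probe set to -0.052 in CYP21A2 (permutation p 0.072 to 0.833; adjusted 0.356 to 0.833). The whole gland's share of medulla was not measured in another way.

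The genes most like each member over the 19 piglets were taken from the probe sets with 1 symbol, as a description. HSD3B1 was closest to TC2N (r = 0.920), DUSP4 (0.902), a phosphatase of MAP kinases, and CYBRD1 (0.880), a ferric reductase, followed by STT3B (0.879) and RNF111 (0.873). The first 3 also led after group means were subtracted (0.944, 0.905 and 0.896). For the first SCARB1 probe set the list was G6PC3 (0.902), SEC61A1 (0.900), a channel subunit of the endoplasmic reticulum, C7H6orf89 (0.897), SCAMP2 (0.884) and CLPTM1 (0.883). C7H6orf89 also led for the second (0.914), followed by ATG4A (0.910), ATP5L (0.904), MAP2K4 (0.898) and OXCT1 (0.897). Of 20667 other probe sets, 5 were closer to the first SCARB1 probe set than the second was, and 179 were closer to HSD3B1 than the first SCARB1 probe set was.

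The hydroxylases had less close neighbours. CYP17A1 was closest to SRPX2 (0.794), CLDN23 (0.791), HSPD1 (0.772), a mitochondrial chaperonin, NDUFA9 (0.770), a subunit of respiratory complex I, and MCFD2 (0.765). CYP21A2 was closest to LMAN2 (0.752), a cargo lectin of the secretory route, RAB22A (0.739), ATP5B (0.737), a subunit of ATP synthase, SLA-DMA (0.718) and MAP4K2 (0.718). After group means were subtracted, MIF led for CYP17A1 (0.858), and for CYP21A2 it followed NUCB1 (0.852) and MCFD2 (0.850) at 0.836. Of the 20667 other probe sets, 48 were closer to CYP21A2 than CYP17A1 was.

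The rest of the pathway was read from 4 lists without the members. Of the enzymes and redox partners of steroid synthesis 12 could be tested, and none passed the adjusted threshold in any of the 4 comparisons. After maternal LPS 9 of the 12 were lower (median -0.09 against 0.01 over all probe sets) and none had an unadjusted p under 0.05. Of all probe sets 48.2% were lower and 6.97% had such a p. Under fish oil 5 of the 12 were higher and 7 lower (median -0.02 against 0.001), where 2.69% of all probe sets had an unadjusted p under 0.05. The 1 of the 12 with such a p was HSD11B2, which turns cortisol into inactive cortisone, at 0.53 ± 0.17 (unadjusted limma p 0.00492, adjusted 1). Its group means were 6.48 and 6.25 under fish oil after saline and LPS and 5.84 and 5.83 under the control diet. Under microalgae 5 were higher and 7 lower (median -0.03 against 0.003), none at an unadjusted p under 0.05 (1.65% of all probe sets). Against microalgae, fish oil piglets had higher HSD11B2 (0.59 ± 0.18) and CYB5B (0.31 ± 0.14), each with an adjusted limma p of 1. CYB5A, the cytochrome b5 that aids the lyase step of CYP17A1, varied most of the 12, with an SD of 1.497 over all piglets around a mean of 7.49. STAR, CYP11A1 and CYP11B1, which carry out the mitochondrial steps, had no probe set under their own symbol and were not analysed here.

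Of the genes of cholesterol supply and storage, 22 could be tested beside SCARB1. Under fish oil 17 of them were higher and 5 lower (median 0.08), where 50.4% of all probe sets were higher (median 0.001). For fish oil against microalgae 18 were higher and 4 lower (median 0.10), where 48.7% of all were higher (median -0.004). None had an unadjusted p under 0.05 in either, as 2.69% and 2.85% of all probe sets did. After maternal LPS 15 of the 22 were lower (median -0.07), and under microalgae 13 were (median -0.01). Over all probe sets 48.2% and 49% were lower (medians 0.007 and 0.003). Among the 22, NPC1 and NPC2, which export cholesterol from lysosomes, had means of 8.53 ± 0.39 and 8.95 ± 0.33 (SD, n = 19). LIPA, the lysosomal lipase that frees cholesterol from its esters, had 9.12 ± 0.29.

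Of 14 genes of cholesterol synthesis, 13 were lower after maternal LPS (median -0.20), as were 48.2% of all probe sets. Under fish oil 12 were higher (median 0.10) and under microalgae 13 were (median 0.27), where 50.4% and 51% of all were higher. For fish oil against microalgae 12 of the 14 were lower (median -0.18), as were 51.3% of all probe sets. None of the 14 had an unadjusted p under 0.05 in any of the 4 comparisons. Of all probe sets 6.97% had one after maternal LPS, 2.69% under fish oil and 1.65% under microalgae. For fish oil against microalgae the share was 2.85%. Of 26 genes of ACTH signalling and steroidogenic transcription, 15 were lower after maternal LPS, among them PDE8A, a cyclic AMP phosphodiesterase, at -0.30 ± 0.12 (unadjusted limma p 0.0222, adjusted 0.676). Under fish oil 16 were higher (50.4% of all probe sets), none at an unadjusted p under 0.05 (2.69% of all). Under microalgae 16 were higher, among them the adenylyl cyclases ADCY5 (0.53 ± 0.22) and ADCY6 (0.29 ± 0.12), both with an adjusted limma p of 1. The ACTH receptor MC2R and the factor NR5A1 were not analysed here.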

How the data were processed

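The values are those of the series' deposited table, on a log2 scale as read from their range (0.263 to 13.5). Transcriptome Analysis Console 4.0 appears in the submitters' processing notes, and the summarization and normalization are not given in the sources used here. Groups came from the labels for maternal diet and maternal LPS. The platform annotation gave 13157 probe sets 1 symbol, 523 several and 13878 none. Only those with 1 symbol were named, and a listed gene with several probe sets was read from the 1 with the highest mean.

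The deposited log2 values were used with no further normalization. Probe sets in the bottom 25% by mean signal (below 3.23) were dropped, leaving 20668. A mean per group was fitted with limma 3.58.1 in R 4.3.3 (empirical Bayes with an intensity trend, two-sided, Benjamini-Hochberg over all probe sets, threshold 0.05). Exact permutation tests exchanged piglets within levels of the other factor. Permutation p of correlations used 100000 draws. The script was tested on simulated data.

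Named genes were the 4 members, the 5 genes most correlated with each, list genes with an unadjusted p under 0.05, and genes of the steroid and cholesterol supply lists by mean level, of which NPC1, NPC2, LIPA and CYB5A, like the cortex markers, were picked after their values were seen. The members and lists were chosen with earlier results of these data known. Alternatives were other filters on low signal, arrays weighted, centred on their medians or quantile normalized, a covariate (mean of medulla markers, or array spread), an additive model, no intensity trend, and leaving out each piglet or piglets 6 and 24. No label pairs piglets across groups. No sequence is shown.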

Additional observations from a re-analysis of the deposited data

Results flagged for a closer look

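In fish oil piglets of saline sows, piglet 13 had a CYP21A2 signal of 11.20 while the other 3 lay between 11.47 and 11.48. Its gap to the nearest of them was 0.952 of the group's range, above the limit for 4 samples. Of the 10 groups of 4 examined in this way (2 fish oil groups for each of 5 probe sets) this was the only 1, and chance alone marks about 5% of groups. Without piglet 13 the fish oil difference of CYP21A2 was 0.33, with an unadjusted limma p of 0.0166.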

How the results depend on the processing

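Alternatives were 11 other settings of the fit and the exact permutation tests, which were judged by unadjusted p. The members' differences kept their direction and their side of the threshold in 343 of 360 such values, and with 1 piglet left out in 575 of 608. The fits were judged by adjusted p. Those in which the unadjusted p of CYP21A2 for fish oil rose above 0.05 thus count as kept. Many of these values could not change direction. The permutation tests, the other filters on low signal and the fit with no intensity trend keep the main difference. Leaving out a piglet that is not part of a comparison keeps it too. No member passed the adjusted threshold in any of the fits. The values reversed under these settings belonged to estimates within 0.10 of 0. For microalgae, SCARB1 (first probe set) was -0.00027 with array weights, SCARB1 (second) -0.111 with quantile normalization, -0.011 with median centring, -0.140 with array weights and -0.139 without piglets 6 and 24, and HSD3B1 was -0.109, -0.096 and -0.062 with quantile normalization, array weights and without those piglets. For the fish oil interaction, SCARB1 (second) was -0.009 with the fibroblast mean as covariate and -0.119 without piglets 6 and 24. HSD3B1 was -0.026 with array weights, -0.070 with the fibroblast mean and -0.021 without those piglets. With quantile normalization and array weights CYP17A1 was 0.014 and 0.056, and CYP21A2 0.116 and 0.076. The cause was not tested.

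Leaving out 1 piglet gave ranges that crossed 0 for microalgae in SCARB1 (first, -0.023 to 0.203, and second, -0.139 to 0.134), CYP17A1 (-0.070 to 0.204) and HSD3B1 (-0.104 to 0.119). They did so for the fish oil interaction in SCARB1 (first, -0.056 to 0.381, and second, -0.211 to 0.343), CYP17A1 (-0.228 to 0.080), HSD3B1 (-0.155 to 0.271) and CYP21A2 (-0.187 to 0.116), and for the microalgae interaction in SCARB1 (first, -0.317 to 0.134). The remaining ones were maternal LPS in CYP17A1 (-0.154 to 0.029) and CYP21A2 (-0.077 to 0.033), and fish oil against microalgae in CYP17A1 (-0.065 to 0.210). Without piglet 7 or 23 the lone microalgae piglet of an LPS sow is assumed to vary like the other groups.

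The fish oil difference of CYP21A2 ran from 0.21 to 0.36 without 1 piglet and from 0.23 to 0.32 in the other settings. Its unadjusted limma p also rose above 0.05 without piglets 6 and 24 (to 0.0517, with a difference of 0.29).

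The number of probe sets past the adjusted threshold for maternal LPS was 2. It was 0 with no filter, with quantile normalization, with the medulla, array spread or fibroblast covariate, in the additive model and without piglets 6 and 24, was 9 with array weights, and ran from 0 to 12 without 1 piglet (12 without piglet 7). For the microalgae interaction it was 1 with the fibroblast covariate. The additive model gives no interaction.

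Of the correlations, CYP17A1 with CYP21A2 fell to 0.467 (adjusted permutation p = 0.11) with quantile normalization and ran from 0.511 to 0.765 without 1 piglet. CYP17A1 with SCARB1 was 0.241, 0.421, 0.494 and 0.344 for the first probe set (without the 2 farthest piglets, with group means subtracted, with array spread regressed out and with quantile normalization), and 0.252, 0.495 and 0.409 for the second (the same without the array spread). CYP21A2 with SCARB1 (first) was 0.457, 0.601 and 0.447 under those 3 settings, none past 0.05 adjusted. HSD3B1 with CYP17A1 was 0.466 and CYP21A2 with SCARB1 (second) 0.538 with median centring, both then past 0.05, and HSD3B1 with CYP21A2 was -0.113 with quantile normalization. CYP17A1 with the medulla mean was 0.052 without the 2 farthest piglets, and HSD3B1 with the array spread 0.597 with group means subtracted, past 0.05 adjusted only before. Without 1 piglet the ranges were 0.312 to 0.602 and 0.422 to 0.627 (CYP17A1 with SCARB1), 0.486 to 0.715 and 0.254 to 0.574 (CYP21A2 with SCARB1) and -0.042 to 0.329 (HSD3B1 with CYP21A2). They were -0.143 to 0.034 for CYP21A2 with the medulla mean, and -0.319 to 0.008, -0.600 to -0.283 and -0.117 to 0.352 for CYP17A1, CYP21A2 and SCARB1 (first) with the fibroblast mean. How far signal lay over background on the arrays is not recorded in the values used here.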
